A study of Solanum pimpinellifolium with 6 samples.

Results

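The miR319 family of wild tomato leaves was followed across 3 temperatures. Members were all listed mature sequences whose name holds miR319 with no further digit, and they came to 11 of the 629 distinct sequences in the table of miRNAs (13 of its 759 entries). To these were added the 10 cleavage sites that the degradome table lists for them, out of 220 distinct sites for all miRNAs, including those in TCP2 and TCP4. The plants were seedlings of the heat-tolerant accession LA2093 of Solanum pimpinellifolium. They were raised at 26/18 °C (day/night) and then spent 8 h at 26/18 °C (NT, the normal temperature), 33/33 °C (MET, moderately elevated) or 40/40 °C (AET, acutely elevated). The 2 elevated-temperature groups also received an extra daily watering that NT did not. Each temperature had 1 small RNA (sRNA) library and 1 degradome library of pooled leaves, so no value below has a replicate, and every test compares 2 libraries, not 2 temperatures.

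In plants, miR319 is an ancient miRNA that directs the cutting of mRNAs for a group of TCP transcription factors, a family named after TEOSINTE BRANCHED, CYCLOIDEA and PCF. In leaves these TCPs promote the exit from cell division and maturation, and in tomato a miR319-resistant TCP gene gives the small, simple leaves of the Lanceolate mutant. The family is related in sequence to miR159, which in Arabidopsis acts mainly on GAMYB-type MYB mRNAs. The miR319 precursor is an unusually long foldback, and in Arabidopsis it can release a further small RNA from higher up its stem besides the miRNA itself.

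The mature sequences are shown because the family's members differ in their ends, their arm and their seed. They are written 5′ to 3′ in DNA letters as deposited, with bases 2 to 8, the seed, in capitals. The 5 printed sequences of the 3p arm, which hold the miRNA itself, were as follows.
spi-miR319a (CCCT end): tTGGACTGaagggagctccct
spi-miR319a (CCTT end): tTGGACTGaagggagctcctt
spi-miR319-3p_stu: tTGGACTGaagggtttccttc
spi-miR319c_ath: cTTGGACTgaagggagctccttc
spi-miR319a-3p_mtr: tTTGCTTGgactgaagggagctcc
The 4 sequences of the 5p arm shared no seed with these or with each other.
spi-miR319b-p5: aTCTCCCGactcattcattca
spi-miR319a-p5: tTGCTGCCgactcattcatcca
spi-miR319-p5_stu: tGCTGCTGaatcattggttc
spi-miR319c-5p: aGAGCTTCcttcagcccactc
The most read member of the related miR159 family is shown for comparison.
spi-miR159_csi: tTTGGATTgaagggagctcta

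All 7 sequences counted as 3p shared one run of 13 bases that starts with TTGGACT, and no listed sequence outside miR319 held it. The seed TGGACTG was common to 4 of the 11, namely both spi-miR319a sequences, spi-miR319-3p_stu and spi-miR319a-3p_aly. spi-miR319c_ath and spi-miR319b_stu began 1 base earlier and so shared the shifted seed TTGGACT. The 2 spi-miR319a sequences differed by C20T, counted from 1 at the 5′ end with the CCCT form first. On the same count spi-miR319a-3p_aly differed by T21C alone. spi-miR319-3p_stu differed from the CCCT form by A14T, G15T, C16T, T17C, C19T, C20T and T21C, all in the 3′ part. spi-miR159_csi started 1 base earlier than spi-miR319a, and over the 20 bases that could be set side by side it was identical at 17, with C6T, C19T and C20A between them. The base at C6T lies inside the miR319 seed.

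The listed hairpins put the family on chromosomes 3, 5, 6, 8 and 12. The genome build of these positions was not given in the sources used here, so they are the authors' coordinates, and the genes around them were not looked up. Both arms were listed for 4 hairpins, at chr6:1551688-1551967 (spi-miR319b-p5 and spi-miR319a), chr8:61949529-61949709 (spi-miR319a-p5 and spi-miR319a), chr3:49898455-49898649 (spi-miR319c-5p and the CCTT form of spi-miR319a) and chr3:61794559-61794736 (spi-miR319-p5_stu and spi-miR319-3p_stu). spi-miR319b_stu came alone from chr3:62165535-62165708. These 5 foldbacks had minimal folding free energy indices, a length- and GC-corrected folding energy, of 0.9 to 1.1. The hairpins listed for spi-miR319c_ath, spi-miR319a-3p_mtr and spi-miR319a-3p_aly scored 0.4 to 0.6. The letters of spi-miR319a-3p_mtr in its hairpin also lay in the chr3:49898455-49898649 foldback, from 5 bases before the start of spi-miR319a to 2 bases before its end. Those of spi-miR319c_ath lay in the chromosome 8 foldback and ran 1 base past spi-miR319a on each side. As listed, however, spi-miR319c_ath has the C20T of the CCTT form. In the chr3:49898455-49898649 foldback the CCTT form is preceded by C, which is also the first base of spi-miR319c_ath. The last base of spi-miR319c_ath was not sought there. The listed sequence differed from its listed hairpin by 1 base for spi-miR319a-3p_mtr (T1C, listed base first), spi-miR319c_ath (T21C), spi-miR319a-3p_aly (C21T) and spi-miR319-p5_stu (T18C). In the listing 1 mismatch was allowed. At its differing base the spi-miR319a-3p_aly hairpin has the T of the CCCT form. The 3p arm of spi-miR319a-3p_mtr, spi-miR319c_ath and spi-miR319a-3p_aly is therefore taken from the shared sequence and not from a fold of their own.

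**Figure D1:**
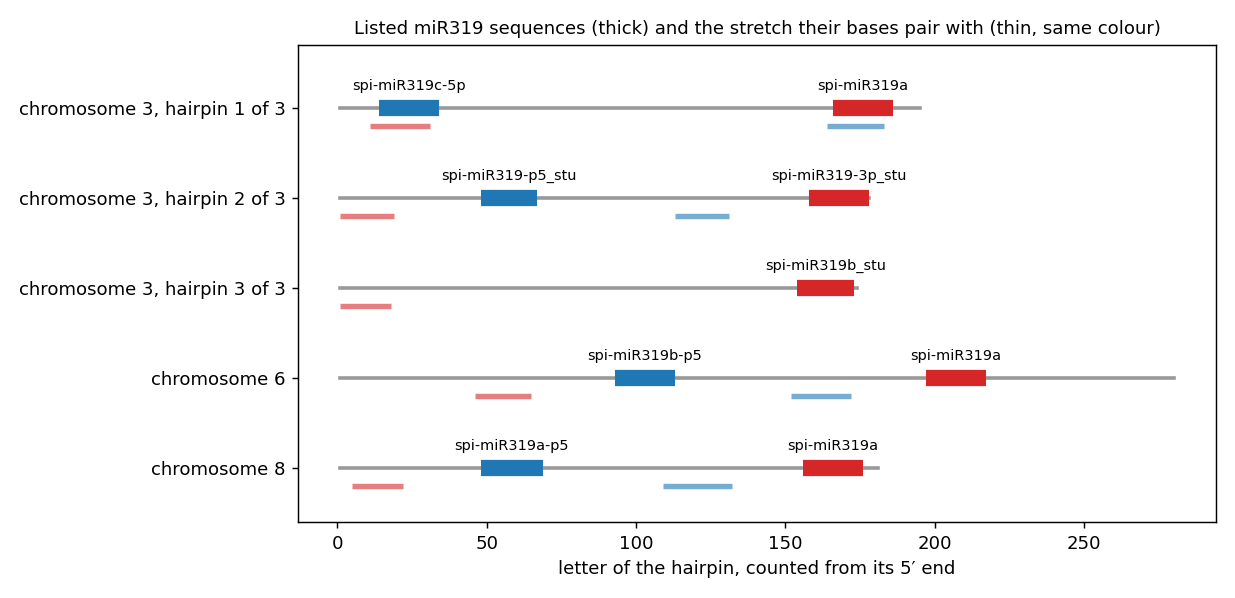
Map of the 5 long miR319 foldbacks, to scale, with the letter of the hairpin from its 5′ end on the x axis. Thick blue and red bars are listed 5p and 3p sequences, and the thin bar under each line in the same colour spans the letters they pair with in the predicted fold. Only spi-miR319c-5p (letters 14 to 34) sits where spi-miR319a pairs (letters 11 to 31). The other three 5p sequences sit higher up the stem.

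Folding the deposited precursor letters showed that the 4 listed 5p sequences came from different places in the stem. spi-miR319c-5p was the partner strand of the miRNA, with 16 of its 21 bases paired to spi-miR319a. The other three had 0 bases paired to the listed 3p sequence of their hairpin. On chromosome 6, spi-miR319a occupied letters 197 to 217 and paired with letters 46 to 65, whereas spi-miR319b-p5 lay at letters 93 to 113 and paired with letters 152 to 172. On chromosome 8, spi-miR319a-p5 lay at letters 48 to 69 and spi-miR319a paired with letters 5 to 22. In the chr3:61794559-61794736 hairpin, spi-miR319-p5_stu lay at letters 48 to 67 and spi-miR319-3p_stu paired with letters 1 to 19. spi-miR319b-p5 and spi-miR319a-p5, from 2 chromosomes, shared an unbroken run of 13 bases. Neither shared an unbroken run of more than 6 bases with the other 5p sequences. Matches interrupted by a differing base were not counted, so likeness beyond such runs was not tested. The hairpins of chromosome 6 and of the spi-miR319-3p_stu pair each held 5 unknown letters, which were left unpaired.

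The depth behind these values was 301702 to 424963 raw reads per sRNA library, summed over the distinct listed sequences. Levels below are the deposited normalized reads, in which the raw reads of a library are multiplied by a single factor (NT 1.33, MET 0.833, AET 0.898). Intervals are exact 95% intervals from the raw reads and cover counting error only, since each temperature had 1 library. They treat every read as independent, so reads copied by PCR would make them too narrow even for counting error. A sequence is called lower or higher when chi-square and Fisher's exact tests (two-sided, against all other listed reads) both gave p of at most 0.05 and its level differed by a log2 ratio of 1 or more either way. In bulk leaf, fewer cells that make a miRNA and less of it per cell cannot be told apart. The tables used hold no mRNA levels, so the leaf label was not checked against marker genes.

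spi-miR319a carried most of the family, and its sequenced level was lowest in the AET library. Levels here rest on 1 sequenced library per temperature, and no other measurement of these miRNAs was used. It had 1191 normalized reads in NT, 689 in MET and 123 in AET (896, 826.5 and 136.7 raw reads). Read as a rank among the 629 sequences, it stood at 20 in NT, 34 in MET and 70 in AET. The level in AET was 9.71-fold lower than in NT, which is -3.28 in log2 (interval from -3.55 to -3.01, p = 9.37e-196 by Fisher's exact test), and 5.61-fold lower than in MET (log2 ratio -2.49, interval -2.76 to -2.22). The difference between MET and NT was smaller, at -0.79 in log2 (interval from -0.93 to -0.65, p = 1.93e-22 by Fisher's exact test), and did not reach the fold threshold. That last value depended on the scaling and was -0.37 when the libraries were scaled to their valid reads. The 2 spi-miR319a sequences are listed with equal reads in every library, so they are 1 measurement and neither they nor their 3 hairpins can be told apart by level. Only 1 other name with over 50 reads in all had 2 sequences of equal reads.

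**Figure D2:**
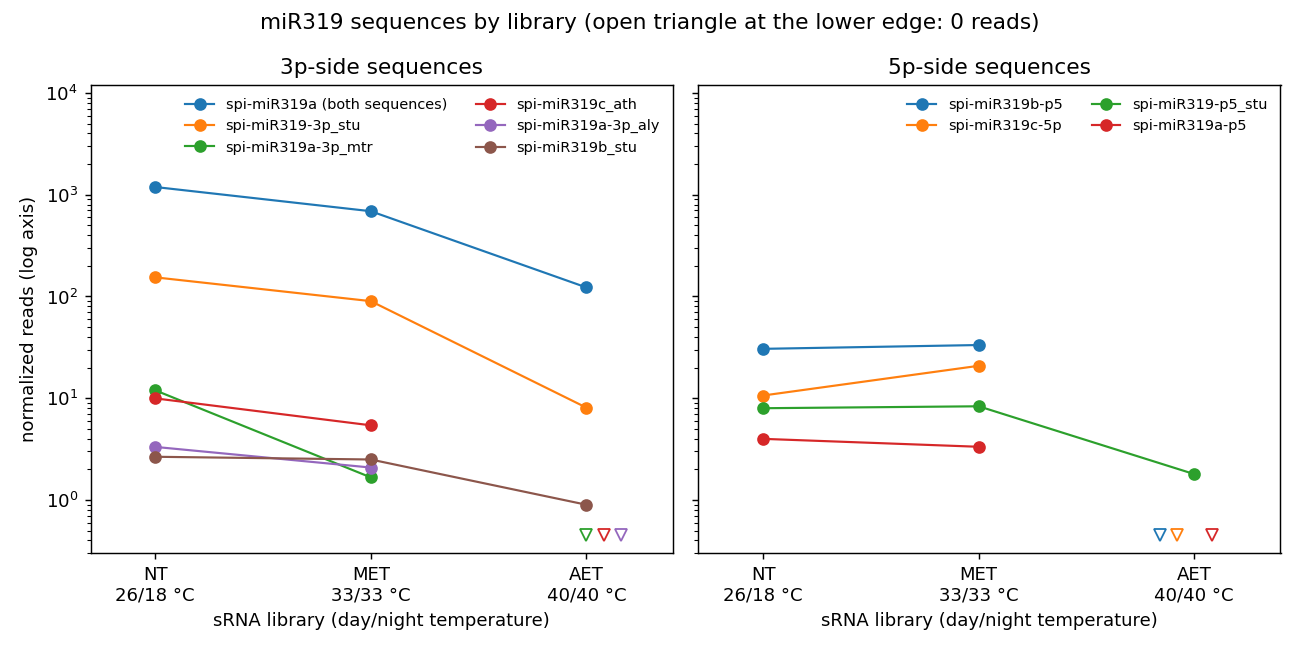
Normalized reads (log axis) of the miR319 sequences in the 3 sRNA libraries, 3p side on the left and 5p side on the right, with 1 library per point and an open triangle for 0 reads. spi-miR319a goes from 1191 in NT to 123 in AET, and 6 of the 11 sequences have 0 reads in AET.

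spi-miR319-3p_stu, the second most abundant member, carries the same seed with a different 3′ part. It had 154 normalized reads in NT, 90.0 in MET and 8.08 in AET, which were 116, 108 and 9 raw reads. Its AET level was 19.1-fold lower than in NT (log2 ratio -4.25, interval -5.42 to -3.28, Fisher's exact p = 4.62e-33) and 11.1-fold lower than in MET. Its MET level was below NT by a log2 ratio of -0.78 (interval -1.17 to -0.39), almost the value of spi-miR319a. Of spi-miR319a and spi-miR319-3p_stu together, the latter made up 11.5% in NT, 11.6% in MET and 6.16% in AET (exact binomial interval 2.86 to 11.4%), so the intervals of NT (9.56 to 13.6%) and AET overlapped.

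The remaining 3p sequences had few reads. spi-miR319a-3p_mtr, the form that starts 5 bases early, had 9 raw reads in NT, 2 in MET and 0 in AET. It was the only member called between MET and NT (log2 ratio -2.84, interval -6.09 to -0.57, Fisher's exact p = 0.0141), and the call was lost when p was adjusted over all sequences. spi-miR319c_ath had 7.5 raw reads in NT, 6.5 in MET and 0 in AET. Against a floor of 3 raw reads per library at 0, spi-miR319a-3p_mtr was 4.44-fold lower and spi-miR319c_ath 3.70-fold lower in AET than in NT. Such folds take the NT reads as exact and are not lower bounds. The intervals of the log2 ratio reached up to -1.55 for spi-miR319a-3p_mtr and -1.34 for spi-miR319c_ath. spi-miR319b_stu had 2, 3 and 1 raw reads and spi-miR319a-3p_aly 2.5, 2.5 and 0, too few for a difference to be detectable at this depth.

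The 5p sequences had few or no reads in AET, while 3 of the 4 had a level in MET above that in NT, within their intervals. spi-miR319b-p5 had 30.6 normalized reads in NT, 33.3 in MET and 0 in AET (23, 40 and 0 raw reads). Against the same floor of 3 raw reads, it was 11.4-fold lower in AET than in NT and 12.4-fold lower than in MET. The intervals of these log2 ratios reached up to -3.09 and -3.26. spi-miR319c-5p, the partner strand, had 8 raw reads in NT, 25 in MET and 0 in AET. Against that floor it was 3.95-fold lower in AET than in NT and 7.73-fold lower than in MET, with intervals of the log2 ratio up to -1.34 and -2.55. Its MET level was 1.96-fold above NT (log2 ratio 0.97, interval -0.22 to 2.33, Fisher's exact p = 0.0512), which was not called here, but was called with the libraries scaled to valid reads (log2 ratio 1.39). spi-miR319-p5_stu had 6, 10 and 2 raw reads, and its AET level did not pass the tests against NT (log2 ratio -2.15, interval -5.49 to 0.33). spi-miR319a-p5 had 3, 4 and 0.

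Over the family, 7 of 11 sequences were called lower and 0 higher in AET against NT, where 8.27% of all 629 sequences were called lower and 12.7% higher. The 7 were both spi-miR319a sequences, spi-miR319-3p_stu, spi-miR319b-p5, spi-miR319c-5p, spi-miR319c_ath and spi-miR319a-3p_mtr, and the 4 that were not called had at most 6 raw reads in NT. In AET against MET, 5 of 11 were called lower and 0 higher, beside 9.06% lower and 11.3% higher of all sequences. Other settings gave up to 7 called lower, where 11.1% of all sequences were. In MET against NT, 1 of 11 was called lower and 0 higher, beside 5.09% and 6.68%. Members read from one hairpin, and the equal reads of spi-miR319a, are not independent, so these counts describe the list.

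Levels summed over the family, with the equal reads of spi-miR319a counted once, were 1426 normalized reads in NT, 856 in MET and 133 in AET. The log2 ratio was -3.42 in AET against NT (interval -3.67 to -3.17) and -0.74 in MET against NT (interval -0.86 to -0.61). Without spi-miR319a the log2 ratio of the sum in AET against NT was -4.45. As a share of all listed reads, miR319 made up 0.357% in NT, 0.242% in MET and 0.0377% in AET. Among sequences that reached 10 normalized reads in either library and were read in both, the median log2 ratio in AET against NT was -3.28 for the 3 such miR319 sequences, 2 of them equal in reads, and 0.15 for all 282, whose quartiles were -0.72 and 0.76. In MET against NT it was -0.78 for 6 miR319 sequences and 0.01 for all 270. Of the 88 sequences that reached 100 normalized reads in NT or AET and were read in both, spi-miR319-3p_stu had the lowest AET to NT ratio and the 2 spi-miR319a sequences followed.

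**Figure D3:**
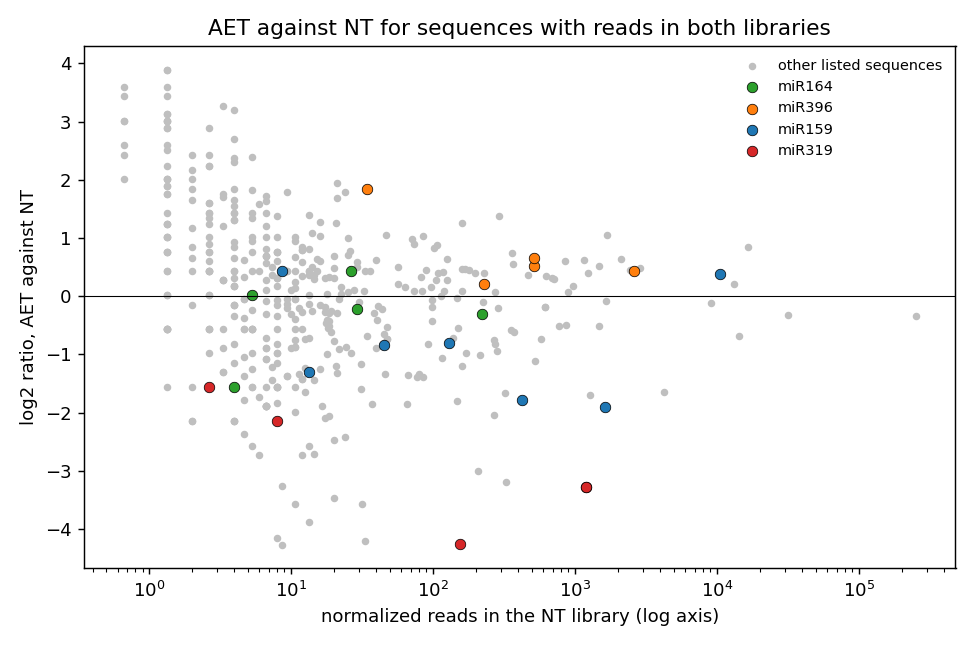
Log2 ratio of AET against NT (y axis) against normalized reads in NT (log x axis) for each listed sequence with reads in both libraries, with miR319, miR159, miR396 and miR164 in colour. spi-miR319a and spi-miR319-3p_stu lie at -3.28 and -4.25, and the 2 spi-miR319a points coincide. Sequences with 0 reads in AET, including 6 of miR319, are not drawn.

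The 2 sides of the hairpin differed in MET. The 5p side summed to 53.2 normalized reads in NT, 65.8 in MET and 1.80 in AET, and the 3p side to 1373, 790 and 132. In MET against NT the log2 ratio was 0.31 for the 5p side (interval -0.26 to 0.89) and -0.80 for the 3p side (interval -0.93 to -0.67). The 5p side was thus 3.73% of the miR319 reads in NT (40 of 1073, exact binomial interval 2.68 to 5.04%), 7.68% in MET (79 of 1028, 6.13 to 9.49%) and 1.34% in AET (2 of 149, 0.163 to 4.76%). Such a share does not depend on how the libraries are scaled. The share in MET was above that in NT (Fisher's exact test, p = 9.59e-05, 0.000288 after Benjamini-Hochberg adjustment over the 3 pairs of libraries) and above that in AET (adjusted exact p = 0.00246), while AET and NT did not pass the test (adjusted exact p = 0.156, log2 odds ratio -1.51 with interval -4.62 to 0.47). Most of the 5p reads were spi-miR319b-p5 from higher up the stem, at 23 of 40 in NT and 40 of 79 in MET. The partner strand spi-miR319c-5p had 8 of 40 in NT and 25 of 79 in MET. Counted with spi-miR319a, its share was 0.885% in NT (exact binomial interval 0.383 to 1.74%) and 2.93% in MET (1.91 to 4.30%), without overlap. For spi-miR319b-p5 counted with spi-miR319a, the intervals of NT (1.59 to 3.73%) and MET (3.32 to 6.24%) overlapped. Reads of spi-miR319a are not split by hairpin in either share. In the one hairpin whose 2 arms have reads of their own, spi-miR319-p5_stu was 4.92% in NT (6 of 122), 8.47% in MET (10 of 118) and 18.2% in AET (2 of 11, exact binomial interval 2.28 to 51.8%), with overlapping intervals.

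**Figure D4:**
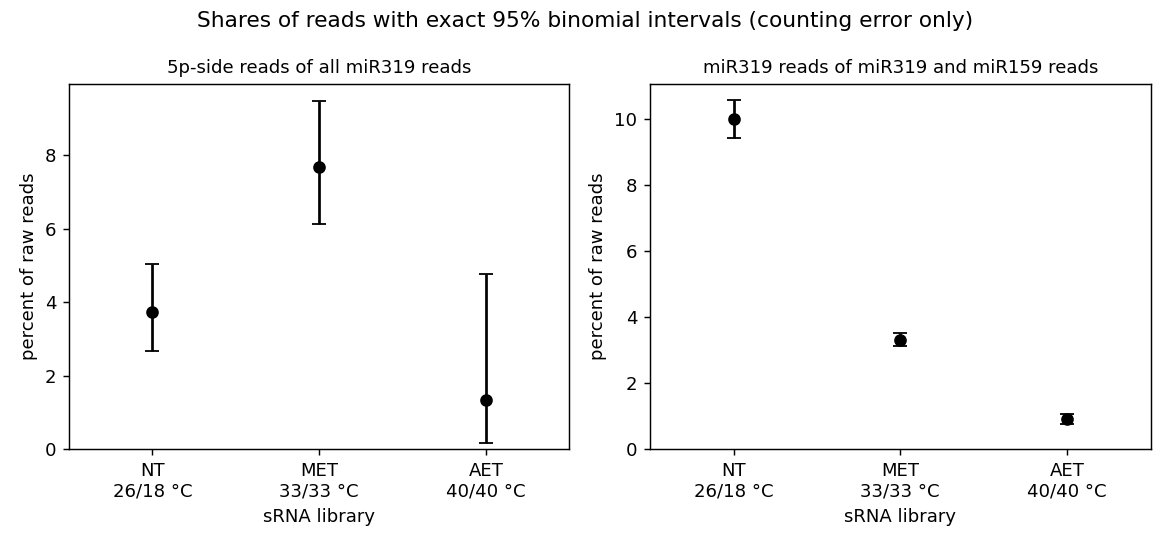
Percent of raw reads in each sRNA library, with exact 95% binomial intervals as bars. Left, 5p-side reads among all miR319 reads, which were 3.73% in NT, 7.68% in MET and 1.34% in AET. Right, miR319 reads among miR319 and miR159 reads together, at 10.0%, 3.30% and 0.914%.

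miR159, the relative that matches spi-miR319a at 17 of 20 bases, was compared with miR319 as a summed family, and the outcome depended in size on 1 sequence. The summed miR159 level was 12843 normalized reads in NT, 25053 in MET and 14471 in AET. Of the 9 miR159 sequences, 2 were called higher in MET and 2 lower in AET against NT, beside 6.68% and 8.27% of all 629 sequences. In AET against MET, 4 of the 9 were called lower and 0 higher, beside 9.06% and 11.3% of all. The sum was mostly spi-miR159_csi, which made up 82.6% of it in NT and 95.4% in AET and had a log2 ratio of 0.38 in AET against NT. The 2 called lower in AET against NT were spi-miR159-p5 (log2 ratio -1.91) and spi-miR159-p3 (-1.78), so parts of miR159 were also lower in AET. Without spi-miR159_csi the miR159 sum was 2238 normalized reads in NT, 1766 in MET and 671 in AET, a log2 ratio of -1.74 in AET against NT (interval -1.86 to -1.61). miR319 made up 10.0% of the reads of both families in NT, 3.30% in MET and 0.914% in AET. The difference between the families, a ratio of raw reads that needs no scaling, was a log2 odds ratio of -3.59 in AET against NT (interval -3.85 to -3.34, Fisher's exact p = 3.35e-280) and -1.70 in MET against NT (interval -1.83 to -1.57, Fisher's exact p = 1.77e-144). AET against MET gave -1.89 (interval -2.15 to -1.64). With spi-miR159_csi left out, chosen after seeing the data, the difference was -1.68 in AET against NT (interval -1.96 to -1.40, Fisher's exact p = 1.39e-37) and -0.39 in MET against NT (interval -0.55 to -0.24, Fisher's exact p = 5.34e-07). In miR396, which acts on growth-regulating factor mRNAs, the summed level was higher in AET than in NT by a log2 ratio of 0.49 (interval 0.42 to 0.55), with 1 of 8 sequences called higher and 0 lower. miR164, which acts on NAC mRNAs, had a log2 ratio of -0.23 (interval -0.49 to 0.03) and 0 of 9 called in either direction. Of all 629 sequences, 12.7% were called higher and 8.27% lower in AET against NT, so the 1 of 8 in miR396 was near the share of all.

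The sequences whose pattern was most like that of spi-miR319a were sought among 299 others that reached 10 normalized reads in some library and were read in all 3, by the distance between their pairs of log2 ratios (MET and AET against NT). The nearest was spi-miR393a_bdi at a distance of 0.29, a member of the family that acts on auxin receptor mRNAs, with 15, 16 and 2 raw reads in NT, MET and AET. PC-72-5p (8, 6 and 1 raw reads, distance 0.41) and PC-88-3p (24, 14 and 3, distance 0.72) came next, then spi-miR9474-p3 (157, 231 and 29, distance 0.73) and spi-miR9726-p3_gma (10, 13 and 1, distance 0.78). The likeness rests on 3 libraries, and 4 of the 5 had at most 3 raw reads in AET. spi-miR319-3p_stu was at position 8 (distance 0.98).

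The degradome libraries capture the 5′ ends of cut mRNAs, and a tag that starts opposite base 10 of a miRNA is the mark of its cut. The depth was 11774232 tags in NT, 11471728 in MET and 10853424 in AET, from the deposited value of a single tag. In all, 7 of the 11 miR319 sequences had a listed site, in 15 pairs of sequence and site, and the cut lay at the 10th base from the 3′ end of the aligned site in 14 of the 15 (at the 9th for PP2CA). The authors listed sites by predicted pairing and tag position together. This position therefore describes how sites were listed and is no evidence of cleavage. The alignment score is a mismatch penalty for the pairing of miRNA and target, in which lower is better.

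TCP2 and TCP4, the TCP transcription factor mRNAs, each had 1 tag in 1 library. The TCP2 site (Solyc08g048390.1.1, TEOSINTE BRANCHED 1, cycloidea and PCF transcription factor 2), cut at position 1025 of the transcript, had 0 tags in NT, 0 in MET and 1 in AET. It was listed for both spi-miR319a sequences (alignment scores 2.5 and 3.5) and spi-miR319-3p_stu (2.5). The TCP4 site (Solyc12g014140.1.1), cut at position 917, had 1 tag in NT, 0 in MET and 0 in AET. It was listed for both spi-miR319a sequences (3 and 3.5), spi-miR319-3p_stu (2.5) and spi-miR319a-3p_aly (4). These 2 were the only sites with a TCP symbol in the whole degradome table, and all 4 sequences listed for them were miR319. Both sites were in category 4, a position with a single tag. A count of 0 allows up to 3 tags, so neither the TCP2 nor the TCP4 site could be shown to differ between any libraries at this depth.

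The other 8 sites were as thinly covered. HDLH, a haloacid dehalogenase-like hydrolase mRNA listed for spi-miR319-3p_stu, was the only site with tags in more than 1 library, at 1 in NT, 2 in MET and 0 in AET. MYB65 (Solyc01g009070.2.1), cut at position 967, had 1 tag in MET alone and was listed for spi-miR319b_stu, with the same cut also listed for 6 miR159 sequences. Among all miRNAs there were 3 sites with a MYB symbol, and MYB65 was the only one listed for miR319. spi-miR319-p5_stu from the upper stem had 5 listed sites, ALP (an aleurain-like protease) and XBCP3 (a cysteine peptidase) with 1 tag each in MET, and CKB4 (a casein kinase II subunit), RCC and PP2CA (a protein phosphatase) with 1 tag each in NT. RCC, of the RCC1 family, had the lowest alignment score of the 10 sites, at 1.5. spi-miR319c-5p had 1 site, in Solyc12g099990.1.1, with 1 tag in AET.

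Summed over the 10 sites there were 5 tags in NT, 5 in MET and 2 in AET, and over the sites with an alignment score of 3 or less there were 2 in each library. Each of the 30 comparisons of 1 site between 2 libraries was tested, and the lowest two-sided Fisher's exact p was 0.480. With so few tags per site no such test could have reached 0.05, so these tests cannot decide whether libraries differed. The deposited degradome p-values of the miR319 sites ran from 0.169 to 0.934, those of TCP2 and TCP4 from 0.615 to 0.880. None of these 16 values was at or below 0.05, beside 15.1% of the 582 values of all miRNAs. Site tags in the degradome and reads in the sRNA libraries came from separate libraries of the same 3 treatments, and no mRNA level was in the tables used.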

How the data were processed

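The members, lists and tests were chosen with earlier results of these data known. The authors trimmed sRNA reads, removed other RNA classes, matched the rest to miRBase hairpins with ACGT101-miR, and deposited raw reads per mature sequence, which are estimated counts by the authors because some are not whole. The authors describe the deposited normalized reads as a modified global normalization (TPM). In the files each library's raw reads are multiplied by a single factor and the totals differ between libraries, so these values were read as a score. Hairpin GC was deposited in percent, and folding indices were deposited as a score. For the degradome the authors used CleaveLand 3.0 and tomato transcripts (iTAG 2.3), and deposited tags scaled to the library total and an alignment score (both read as a score), a category and a p-value per site. 

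Entries were reduced to distinct sequences. The pair of tests (chi-square and Fisher's exact) and both thresholds were those the study names. The continuity setting (none), the rounding of normalized reads, the totals (over all 759 entries) and the lack of correction for many tests were set here, so calls may differ from the study's. Family sums counted equal reads under 1 name once. Share and odds-ratio intervals were exact. The value of 1 degradome tag was taken as the most frequent value in a library, because smaller ones were fractions of it, although the plan named the smallest. Of all values, 89.2 to 97.3% were whole multiples of it (within 0.001). Named items were all miR319 sequences and sites, plus the 5 nearest patterns. Precursor letters came from the study's supplementary table and were folded with RNAfold 2.7.2. Calls were tested on simulated counts with planted changes and counting error only, which leaves out variation between plants and libraries. Alternatives were other scalings, raw reads, other totals, adjusted p, a minimum of 10 reads and no fold threshold. The authors' own comparisons (fold changes and p-values) were not used. Python 3.11.15 and scipy 1.17.1 were used.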

Additional observations from a re-analysis of the deposited data

How the results depend on the processing

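Scaling moved all log2 ratios together, by 0.42 in MET against NT, 0.14 in AET against NT and -0.29 in AET against MET when set to valid reads, and by 0.18 in both comparisons with NT when set to listed reads of distinct sequences. Size factors moved them by at most 0.04. With valid reads the family sum became -0.31 in MET against NT and -2.97 in AET against MET, the median of the miR319 sequences -0.36 and -2.77, and 1 sequence, spi-miR319c-5p, was called higher in MET. That 1 of 11 stood beside 11% of all sequences called higher, so it was near the share of all. With listed reads the family sum in MET against NT was -0.56 and the median -0.60. Sequences of 2 to 4 reads changed sign in MET against NT, spi-miR319a-p5 to 0.17 (valid reads) and spi-miR319b_stu to 0.34 (valid reads) and 0.091 (listed reads). Without spi-miR319a the family sum was -0.49 in MET against NT, -4.45 in AET against NT and -3.96 in AET against MET. In MET against NT, the sequences called lower went from 1 to 0 with Benjamini-Hochberg adjustment, beside 2.23% of all sequences. They went to 4 with no fold threshold, beside 7.79% of all. Sites with an alignment score of 3 or less held 2 degradome tags in each of NT, MET and AET, against 5, 5 and 2 over all sites. The count of 7 called lower in AET against NT was 6 with a minimum of 10 reads, beside 15.3% of the 294 sequences tested. It stayed 7 in the other 7 alternatives, beside 7.31 to 11% of all sequences. The count of 5 in AET against MET was 6 with valid reads, listed reads or totals over distinct sequences, beside 12.2%, 9.7% and 10.8% of all. It was 7 with tests on raw reads, beside 11.1% of all, where spi-miR319-p5_stu was called (Fisher's exact and chi-square p at most 0.0412). Leaving spi-miR159_csi out of miR159, an alternative chosen after seeing the data, brought the difference between miR319 and miR159 to -0.39 in MET against NT, -1.68 in AET against NT and -1.28 in AET against MET. The tests of the 5p share and of miR319 against miR159 kept their side of 0.05 in all alternatives run. No paired analysis was possible because each temperature had 1 library, and for the same reason none could be left out. Depth limits every sequence under about 10 reads and every degradome site.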
